A study of Mus musculus with 35 samples.

Results

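The inhibitors of cyclin-dependent kinases (CDKs) hold cells in G1 and mark the exit from the cell cycle. The 7 genes of both mouse families were taken by gene symbol: 3 of the Cip/Kip family (Cdkn1a, Cdkn1b and Cdkn1c) and 4 of the INK4 family (Cdkn2a, Cdkn2b, Cdkn2c and Cdkn2d). All 7 were among the 23011 gene keys shared by both RNA tables, and all 7 were among the 13518 genes that passed the low-count filter over batches. The cells were cultured mouse neural progenitor cells (NPCs) of embryonic stage of 3 Mettl14 genotypes: wild type (WT), 1 deleted copy (heterozygous, Het) and both copies deleted (homozygous knockout, KO). Mettl14 encodes the partner of Mettl3 in the enzyme that writes N6-methyladenosine (m6A) on messenger RNA. Batch 1 held 3 WT, 3 Het and 3 KO libraries and batch 3 held 2 WT and 2 KO libraries, each from a line of its own. m6A was mapped in WT cells, and the acetylated and trimethylated forms of lysine 27 on histone H3 (H3K27ac and H3K27me3) were mapped in WT lines 532 and 541 and KO lines 530 and 534. Those are the line numbers of batch 3. The labels describe loxP sites placed around an exon of Mettl14, a germline deletion with EIIa-Cre and a brain deletion with nestin-Cre. They do not say which cross gave the cultures, and the animals' age is not given. The counts used here cover the whole Mettl14 locus, and reads of the deleted exon were not counted apart. The counts therefore do not show the deletion by themselves. Mettl14 RNA of batch 1 stood at 23.7 ± 1.18 CPM (counts scaled to library size) in the 3 WT libraries and at 21.8 ± 1.38 in the 3 KO libraries (SD). In batch 3, with 2 libraries each, WT stood at 36.6 ± 1.67 and KO at 26.6 ± 5.38. By edgeR's quasi-likelihood test the log2 fold change of Mettl14 in KO against WT was −0.24 over batches (adjusted p = 0.048). It was −0.12 in batch 1 (adjusted p = 0.22) and −0.46 in batch 3 (adjusted p = 0.084). The call over batches was lost in 8 of the 13 fits that left out 1 library. Libraries held 14.1 to 19.7 M assigned fragments. The design text calls the replicates biological, and the p-values below measure the spread between these libraries. In such bulk samples, fewer cells of a type and less RNA per cell cannot be told apart.

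The families act at different points. INK4 proteins (p15Ink4b, p16Ink4a, p18Ink4c and p19Ink4d) bind Cdk4 and Cdk6 and keep cyclin D from joining them. Cip/Kip proteins (p21, p27 and p57) bind whole cyclin-kinase complexes, above all those of Cdk2. Either way the retinoblastoma protein stays unphosphorylated and E2F targets stay off. Cdkn2a makes a further product from its own first exon, p19Arf, which binds Mdm2 and stabilises p53. In neural stem cells, Cdkn2a and Cdkn1a are known as brakes on self-renewal that the Polycomb protein Bmi1 holds down, p27 and p57 accompany cell cycle exit, and p19Ink4d is found in postmitotic neurons.

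The promoters of the 3 genes whose RNA fell in both batches are shown because the histone marks described below were read over them. Each is the RefSeq sequence of GRCm38.p6, the build that mm10 names, from 250 bases before to 50 bases after an annotated start. The RefSeq table held promoters of 6 of the 7 genes (9 sequences) and none was matched for Cdkn1c. The Ink4a promoter is chr4:89282143-89282442, the Arf promoter is chr4:89294570-89294869 and the Cdkn2b promoter is chr4:89310983-89311282, all on the minus strand. The upstream and downstream promoters of Cdkn1a are chr17:29090729-29091028 and chr17:29093519-29093818 on the plus strand. Capitals mark the GC box GGGCGG on either strand.
Ink4a promoter: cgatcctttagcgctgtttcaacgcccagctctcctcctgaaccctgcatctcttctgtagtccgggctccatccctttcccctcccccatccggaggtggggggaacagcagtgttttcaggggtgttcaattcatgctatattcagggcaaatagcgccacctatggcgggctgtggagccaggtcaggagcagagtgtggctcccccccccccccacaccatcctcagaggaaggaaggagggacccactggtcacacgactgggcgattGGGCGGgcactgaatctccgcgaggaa
Arf promoter: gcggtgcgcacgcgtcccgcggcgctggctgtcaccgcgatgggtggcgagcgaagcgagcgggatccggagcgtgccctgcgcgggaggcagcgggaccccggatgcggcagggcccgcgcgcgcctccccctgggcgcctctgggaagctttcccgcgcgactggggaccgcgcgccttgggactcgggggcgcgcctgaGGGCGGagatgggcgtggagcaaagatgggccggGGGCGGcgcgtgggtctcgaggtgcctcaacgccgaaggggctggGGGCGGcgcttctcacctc
Cdkn2b promoter: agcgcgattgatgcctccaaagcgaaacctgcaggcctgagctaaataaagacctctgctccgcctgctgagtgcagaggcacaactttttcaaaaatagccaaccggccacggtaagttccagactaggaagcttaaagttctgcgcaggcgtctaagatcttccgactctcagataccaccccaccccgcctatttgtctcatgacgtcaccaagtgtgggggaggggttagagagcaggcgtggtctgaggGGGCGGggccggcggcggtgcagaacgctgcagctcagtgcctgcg
Cdkn1a upstream promoter: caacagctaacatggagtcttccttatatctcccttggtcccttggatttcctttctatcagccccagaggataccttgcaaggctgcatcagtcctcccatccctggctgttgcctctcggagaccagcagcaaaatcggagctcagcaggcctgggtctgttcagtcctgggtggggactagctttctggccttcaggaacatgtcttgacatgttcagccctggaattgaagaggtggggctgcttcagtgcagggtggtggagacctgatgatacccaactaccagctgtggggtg
Cdkn1a downstream promoter: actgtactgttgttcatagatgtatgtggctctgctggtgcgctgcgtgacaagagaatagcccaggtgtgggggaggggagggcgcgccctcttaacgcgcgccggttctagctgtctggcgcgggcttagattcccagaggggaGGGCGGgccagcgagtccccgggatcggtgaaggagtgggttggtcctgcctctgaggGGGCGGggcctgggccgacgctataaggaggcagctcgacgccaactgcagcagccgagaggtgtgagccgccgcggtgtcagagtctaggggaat
The Arf promoter was the richest of these in CpG, with 45 in 300 bases and a GC content of 77.0%, and 98.1% of the 32851 promoters in the table held fewer. The Ink4a promoter held 12 CpG, the Cdkn2b promoter 18, the downstream Cdkn1a promoter 23 and the upstream one 2, beside a median of 7 over all promoters. GC boxes numbered 3 in the Arf promoter, 2 in the downstream Cdkn1a promoter, 1 each in those of Ink4a and Cdkn2b, and 0 in the upstream Cdkn1a promoter. Of all promoters 35.7% held at least 1. The other motifs searched on both strands were CCAAT (37.4% of all promoters), TATAAA (13.6%), CACGTG (7.15%), TGACTCA (5.2%), TTTGGCGC (0.514%) and TTTCCCGC (1.07%). In the 5 sequences shown there were 2 further matches. TTTCCCGC, a form of the E2F motif, began 99 bases before the Arf start, and CCAAT lay 20 bases past the Ink4a start, where it shares bases with the GC box. A match is a description of these letters and not a binding site.

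The levels of the 7 genes were compared with each other in FPKM, a scale per transcript length that lets levels of different genes be set side by side. In batch 1 WT cells Cdkn1b was the highest at 80.4 ± 5.73 FPKM, followed by Cdkn1a (53.9 ± 2.63), Cdkn2c (45.2 ± 3.69), Cdkn2d (40.4 ± 1.99), Cdkn2a (33.5 ± 7.17), Cdkn1c (21.1 ± 4.20) and Cdkn2b (15.6 ± 5.51; SD, n = 3). Neighbours whose libraries overlapped were Cdkn2c with Cdkn2d, Cdkn2d with Cdkn2a, and Cdkn1c with Cdkn2b. In batch 3 WT cells the order began with Cdkn1a, at 162 ± 15.1 FPKM (n = 2), and went on with Cdkn1b (57.7), Cdkn2c (53.3), Cdkn2d (33.0), Cdkn2a (31.8), Cdkn1c (9.56) and Cdkn2b (6.79). Overlapping neighbours there were Cdkn1b with Cdkn2c, Cdkn2d with Cdkn2a, and Cdkn1c with Cdkn2b. The FPKM of the tables were scaled separately, and the Cdkn2b locus is longer in batch 1 (chr4:89298854-89311082) than in batch 3 (chr4:89306289-89311032), so levels of Cdkn2b are compared only within a batch.

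Summed over the 7 genes, the FPKM lay between 274.6 and 301.2 in the WT libraries of batch 1, between 291.8 and 307.4 in Het and between 216.2 and 222.4 in KO. In batch 3 the sum lay between 331.8 and 376.7 in WT and at 266.2 and 266.7 in KO. The KO libraries were thus below the WT libraries in both batches, without overlap. The families did not share this alike. Cip/Kip genes summed to a mean of 155.4 FPKM in WT and 133.4 in KO of batch 1, and 229.3 and 146.4 in batch 3. INK4 genes summed to 134.7 and 85.1 in batch 1, and to 124.9 and 120.0 in batch 3. Cdkn1a alone had a mean of 162 in WT and 86.0 in KO of batch 3. The make-up differed too. The share of Cdkn1a in the sum was 18.6% in WT and 8.10% in KO of batch 1, and 45.8% and 32.3% in batch 3. Cdkn1b made up 27.7% of the sum in WT and 43.5% in KO of batch 1. In KO cells the order by FPKM was Cdkn1b (95.1), Cdkn2c (40.4), Cdkn2d (37.2), Cdkn1c (20.6), Cdkn1a (17.7), Cdkn2a (4.73) and Cdkn2b (2.82) in batch 1, with overlap of Cdkn2c with Cdkn2d and of Cdkn1c with Cdkn1a. In batch 3 KO cells it was Cdkn1a (86.0), Cdkn1b (56.7), Cdkn2c (55.2), Cdkn2d (53.4), Cdkn2a (9.48), Cdkn1c (3.75) and Cdkn2b (1.94), with overlap of Cdkn1b with Cdkn2c.

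**Figure D1:**
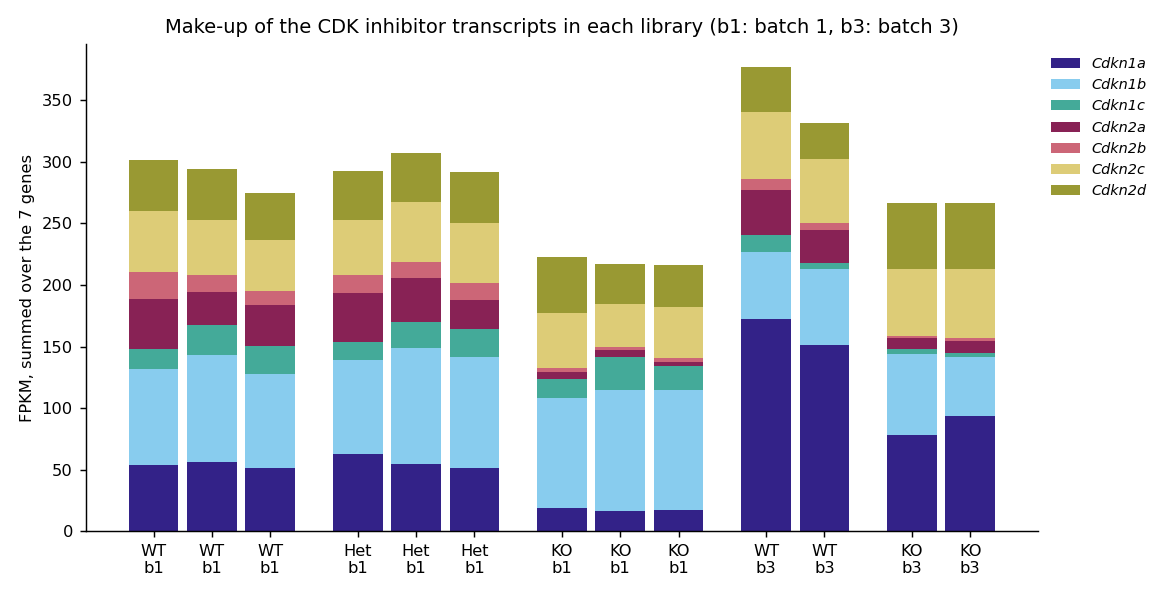
Each stacked bar is 1 library (b1 for batch 1, b3 for batch 3) and gives the FPKM of the 7 genes on a linear axis from 0. The KO bars are lower than the WT bars of their batch, and the Cdkn1a segment has a mean of 53.9 FPKM in WT and 17.7 in KO of batch 1.

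Cdkn1a encodes p21, the inhibitor that p53 induces. Its level was 98.0, 102 and 95.9 CPM in the WT libraries of batch 1, 114, 98.1 and 92.7 in Het, and 36.5, 34.4 and 35.02 in KO. Batch 3 libraries held 303 and 297 CPM in WT and 135 and 182 in KO. Every KO library was below every WT library of its batch, and the Het libraries overlapped the WT libraries, with 1 above and 1 below their range. The level differed between batches as well, with the KO libraries of batch 3 above the WT libraries of batch 1. Cdkn1a fell by 1.48 on the log2 scale in batch 1 (SE 0.077, adjusted p = 7.4e-08), a 2.79-fold lower mean CPM. It fell by 0.92 in batch 3 (SE 0.16, adjusted p = 0.0049), which is 1.90-fold lower. Over batches the log2 fold change was −1.23 (SE 0.11, adjusted p = 7.2e-07; edgeR's quasi-likelihood test with Benjamini-Hochberg adjustment, as for all adjusted p-values here).

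Cdkn1b encodes p27, which accumulates in resting cells and is controlled largely at the protein level. It stood at 154, 152 and 138 CPM in WT, 148, 164 and 159.6 in Het, and 189, 178 and 178 in KO of batch 1. Batch 3 gave 184 and 186 in WT and 191 and 160.1 in KO. The KO libraries were above all WT libraries in batch 1 and overlapped them in batch 3. Cdkn1b rose by 0.29 in batch 1 (SE 0.060, adjusted p = 0.0011), had a log2 fold change of −0.08 in batch 3 (adjusted p = 0.70), and over batches had one of 0.17 (SE 0.082, adjusted p = 0.094). Without the second KO library of batch 3 the change over batches was 0.21 and passed the threshold (adjusted p = 0.010).

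Cdkn1c encodes p57 and is an imprinted gene expressed from the maternal copy. It stood at 20.1, 26.4 and 23.7 CPM in WT, 17.1, 21.1 and 22.0 in Het, and 20.3, 34.7 and 26.6 in KO of batch 1. The genotypes of batch 1 overlapped, and the log2 fold change was 0.22 (adjusted p = 0.32). In batch 3 the WT libraries held 20.4 and 9.67 CPM and the KO libraries 6.51 and 5.29, so that KO lay below WT, although the WT libraries were far apart. There Cdkn1c fell by 1.36 (SE 0.35, adjusted p = 0.022). Without the first WT library of batch 3 the value was −0.72 and the adjusted p 0.23. Leaving out either KO library also ended the call (adjusted p = 0.13 and 0.24). Over batches the log2 fold change was −0.33 (SE 0.29, adjusted p = 0.35).

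**Figure D2:**
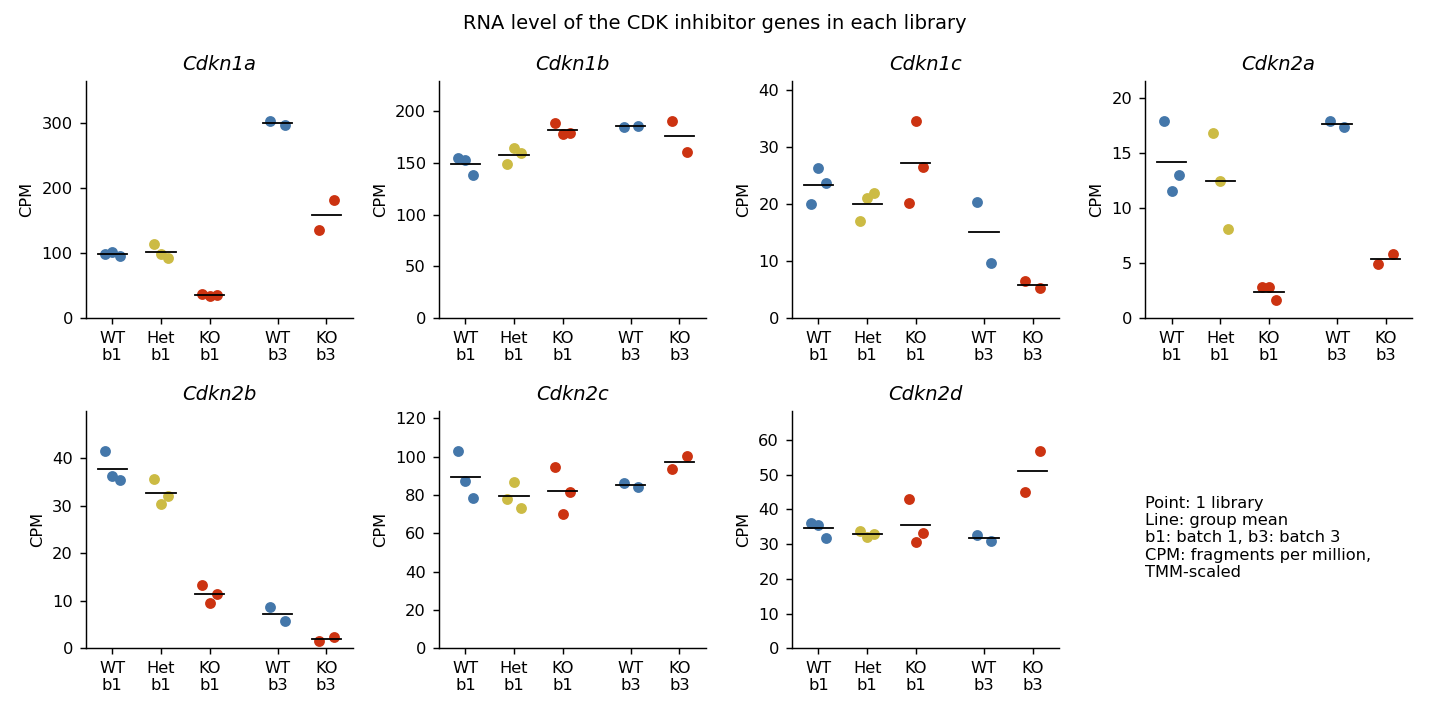
Points give the CPM of each library for the 7 genes on linear axes from 0, by genotype and batch (b1 and b3), and black lines give the group means. Cdkn1a, Cdkn2a and Cdkn2b have every KO point below every WT point in both batches, and the Het points of these genes lie above the KO points of batch 1.

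Cdkn2a had the largest fall of the 7 over batches. Its count covers p16Ink4a and p19Arf together, since the transcripts share exons 2 and 3 and the tables give a value per locus, here chr4:89274473-89294619. In batch 1 it stood at 17.9, 11.6 and 13.01 CPM in WT, 16.8, 12.5 and 8.11 in Het, and 2.81, 2.82 and 1.63 in KO. Batch 3 gave 17.9 and 17.3 CPM in WT and 4.92 and 5.81 in KO. All KO libraries lay below all WT libraries, and below all Het libraries. Cdkn2a fell by 2.52 in batch 1 (SE 0.31, adjusted p = 5.5e-05), with a mean CPM 5.85-fold lower. In batch 3 it fell by 1.71 (SE 0.22, adjusted p = 0.0013), 3.29-fold lower, and over batches the log2 fold change was −2.15 (SE 0.23, adjusted p = 4.5e-06).

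Cdkn2b lies next to Cdkn2a on chromosome 4 and encodes p15Ink4b, which TGF-beta signalling is known to induce. It stood at 41.6, 36.3 and 35.6 CPM in WT, 35.6, 30.4 and 32.1 in Het, and 13.3, 9.66 and 11.5 in KO of batch 1. In batch 3 the values were 8.72 and 5.82 CPM in WT and 1.59 and 2.41 in KO. KO and WT did not overlap in either batch. Cdkn2b fell by 1.72 in batch 1 (SE 0.12, adjusted p = 4.8e-07), 3.29-fold lower in mean CPM, and by 1.85 in batch 3 (SE 0.36, adjusted p = 0.0066), 3.63-fold lower. Over batches the log2 fold change was −1.73 (SE 0.14, adjusted p = 3.5e-07). Cdkn2a and Cdkn2b are neighbours in the genome, so their falls are not 2 independent observations of the locus.

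Cdkn2c encodes p18Ink4c, an INK4 protein of dividing progenitors. It stood at 103, 87.2 and 78.5 CPM in WT, 78.1, 86.7 and 73.3 in Het, and 94.7, 69.9 and 81.4 in KO of batch 1. In batch 3 it stood at 86.2 and 84.1 in WT and at 93.6 and 100.6 in KO. The groups overlapped in batch 1 and KO lay above WT in batch 3. No comparison called Cdkn2c, with log2 fold changes of −0.13 in batch 1 (adjusted p = 0.39), 0.19 in batch 3 (adjusted p = 0.28) and 0.02 over batches (SE 0.098, adjusted p = 0.87).

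Cdkn2d encodes p19Ink4d, a protein distinct from p19Arf. It stood at 36.1, 35.6 and 31.8 CPM in WT, 33.7, 32.0 and 32.8 in Het, and 43.0, 30.5 and 33.1 in KO of batch 1, where the groups overlapped. In batch 3 it stood at 32.7 and 30.8 in WT and at 45.1 and 56.8 in KO, with KO above WT. Cdkn2d rose by 0.68 in batch 3 (SE 0.17, adjusted p = 0.017), while its log2 fold change in batch 1 was 0.04 (adjusted p = 0.75). The batch 3 call was lost without either WT library (adjusted p = 0.073 and 0.13). Over batches it rose by 0.32 (SE 0.13, adjusted p = 0.040). That call was lost in 9 of the 13 fits that left out 1 library, and in 4 of the other 7 alternatives, with adjusted p between 0.0092 and 0.27 over all of them.

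Set against the background of all genes, the counts for the 7 were as follows. Over batches 1 of the 7 was higher and 3 were lower in KO, where 32.8% of all genes tested were called higher and 30.8% lower. In batch 1 it was again 1 and 3 (background 34.3% and 35.0%), the higher one being Cdkn1b. In batch 3 it was 1 and 4 (background 17.3% and 14.4%), the higher one being Cdkn2d. The median log2 fold change of the 7 was −0.33 over batches, −0.13 in batch 1 and −0.92 in batch 3, beside 0.03, 0.00 and 0.00 for all genes. Of the 7, 3 had KO below WT without overlap in both batches and 0 had KO above in both, where 23.9% and 23.8% of all genes did.

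Loss of 1 copy of Mettl14 gave no call among the 7. The log2 fold changes of Het against WT ran from −0.22 for Cdkn1c to 0.09 for Cdkn1b, with adjusted p between 0.64 and 0.90. At an unadjusted p under 0.05 edgeR and DESeq2 each counted 0 of the 7, and DESeq2 called 0 after adjustment. Over all genes edgeR called 0.0147%. KO against Het, which shares its KO libraries with KO against WT, gave log2 fold changes of −1.52 for Cdkn1a, −2.34 for Cdkn2a and −1.51 for Cdkn2b, with adjusted p of 7.3e-08, 9.8e-05 and 1.3e-06. Cdkn1b was 0.21 higher in KO than in Het (adjusted p = 0.0096), a call lost with limma on FPKM (0.14, adjusted p = 0.20). Cdkn1c (0.44, adjusted p = 0.061) was called by DESeq2 (adjusted p = 0.036) and, by edgeR, without the first KO library (0.61, adjusted p = 0.0041). Cdkn2c (0.05, adjusted p = 0.75) and Cdkn2d (0.12, adjusted p = 0.40) did not pass. In that comparison 33.9% of all genes were called higher and 34.2% lower by edgeR, and limma on FPKM turned 4623 higher and 4670 lower into 3423 and 5245 with a pseudocount of 1, and into 3389 and 5269 with 0.1.

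The effect of the knockout was tested for a difference between batches, which differ in sequencing experiment, lines and assembly. Of the 7 genes, 4 differed, where 18.8% of all genes did. Cdkn1a fell less in batch 3, by a difference of 0.52 on the log2 scale (SE 0.16, adjusted p = 0.038), and the change of Cdkn2d was higher there, by 0.60 (SE 0.19, adjusted p = 0.046). Cdkn1b and Cdkn1c were lower in batch 3 relative to batch 1, by −0.41 (SE 0.12, adjusted p = 0.034) and −1.62 (SE 0.41, adjusted p = 0.021). No difference was called for Cdkn2a (0.77, adjusted p = 0.21), Cdkn2b (−0.17, adjusted p = 0.72) or Cdkn2c (0.28, adjusted p = 0.30). These calls rest on few libraries. Leaving out 1 library at a time ended the call of Cdkn2d in 11 of 13 fits, of Cdkn1a in 8, of Cdkn1b in 7 and of Cdkn1c in 2, and 0 of the 7 genes differed without the first WT library or without the second KO library of batch 3.

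**Figure D3:**
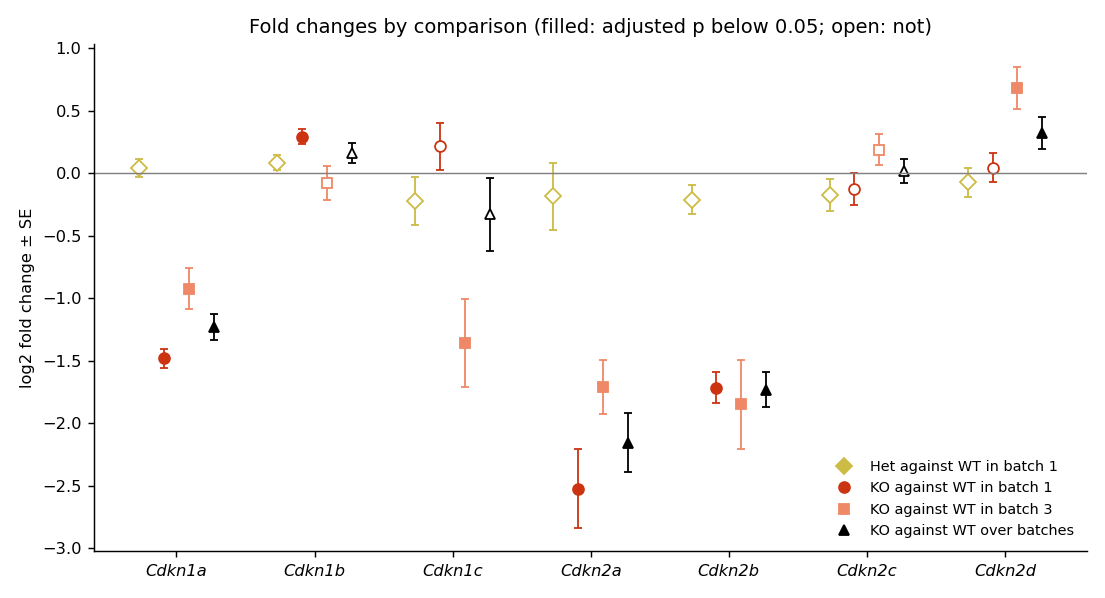
Points give the log2 fold change of each gene for Het against WT in batch 1 and for KO against WT in batch 1, in batch 3 and over batches, with bars of 1 SE either way, and filled points have an adjusted p below 0.05. In KO against WT, Cdkn1a, Cdkn2a and Cdkn2b lie below 0 in every fit, while the Het points of all 7 genes are open.

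The Ink4 locus was then read beyond its named genes. In batch 1 the assembly holds a plus-strand locus of 17 transcripts, chr4:89294739-89526605, that starts 120 bases from the Arf start and runs across Cdkn2b in the antisense direction. It held 447, 452 and 657 fragments in the WT libraries, 481, 430 and 468 in Het, and 295, 225 and 183 in KO. Fitted as a locus by itself it fell by 1.24 (SE 0.11, adjusted p = 7.7e-07), with Cdkn2b alone at −1.81, where 31.7% of all loci fitted this way were called lower. Whether the counting used strand is not given in the sources used here, so reads of overlapping loci may not be separated. From Cdkn2b onward, chr4:89311205-89528342 held 19 tested loci without a gene name and without a strand, a region chosen after its values were seen. Of these 18 lie within the bounds of the plus-strand locus, so they are not a separate observation. Of the 19, 16 were called lower and 0 higher in KO than in WT of batch 1, with log2 fold changes between −2.15 and −0.70. In batch 3 a single unnamed locus there was tested and did not pass (−0.66, adjusted p = 0.56). Both named neighbours fell over batches, and in batch 3 only Dmrta1 was called lower. Mtap, which salvages methionine, averaged 98.0 ± 4.47 CPM in WT against 32.2 ± 5.59 in KO (batch 1), then 144 ± 17.8 against 113 ± 17.9 (batch 3; log2 fold change over batches −1.07, adjusted p = 3.7e-04). Dmrta1 averaged 9.07 ± 2.55 CPM against 1.67 ± 0.660, then 4.49 ± 1.76 against 0.923 ± 0.574 (−2.37, adjusted p = 2.4e-04).

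The histone marks were read as the authors' peaks within 1 kb of 9 starts of the 7 genes. For Cdkn2c the start read was that of its downstream promoter. Its upstream promoter, chr4:109666707-109667006, lay outside that window. The background of 27093 annotated starts was not filtered by RNA level, whereas all 7 genes passed the low-count filter. H3K27ac marks active promoters and enhancers, and H3K27me3 is the mark of Polycomb repressive complex 2. Each fold below is the authors' enrichment of the whole peak over input in 1 line. The lists were called separately, so their lengths differ: 80947 and 55130 H3K27ac peaks in WT, 55633 and 63189 in KO, and 58863 and 33188 H3K27me3 peaks in WT, 43186 and 59561 in KO. With 2 lines a genotype no test was made, and the read depth is unknown. The share of all starts whose KO folds lie below or above both WT folds was not counted. Such an order of folds at a start is therefore given as a description and not as a change at that gene.

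H3K27ac was present at 8 of the 9 starts in all 4 lines, and over 27093 annotated starts of all genes 52.2% were marked in all 4. The exception was Ink4a, with a peak of fold 3.23 in WT line 532 and in no other line. At the Arf start the fold was 9.30 and 8.97 in WT and 6.40 and 8.55 in KO. At the Cdkn2b start it was 5.83 and 4.85 in WT and 4.50 and 6.61 in KO. The values of the genotypes overlapped at Cdkn2b, and both KO values were below both WT values at Arf. At Cdkn1a, WT lines had a single peak of 6671 and 6805 bases across both starts, with fold 7.73 and 6.97. KO lines had separate peaks: 2323 and 1616 bases at the upstream start with fold 3.80 and 3.77, and 2696 and 2196 bases at the downstream start with fold 6.38 and 8.12. In line 530 the downstream peak covers the CpG-rich downstream promoter shown above, and in line 534 it starts past that promoter, at position 29093862. A small H3K27ac peak 7.6 to 7.9 kb inside Cdkn2a from the Arf start, of fold 4.30 and 4.45, was in both WT lists and in neither KO list.

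At the other starts, both KO folds of H3K27ac were below both WT folds at Cdkn1b and Cdkn2c, and the genotypes overlapped at Cdkn2d and Cdkn1c. How common this order is over all starts was not counted. Cdkn1b had 9.48 and 11.6 in WT and 7.81 and 9.23 in KO. Cdkn2c had 10.0 and 12.04 against 9.53 and 9.59, and Cdkn2d 7.71 and 5.56 against 6.46 and 6.25. Cdkn1c had the lowest, 2.76 and 2.74 against 3.08 and 2.58. The overlap at Cdkn1c rests on the window, since across the gene KO line 534 had a peak of fold 3.02.

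H3K27me3 lay at the starts of Cdkn2a, Cdkn1c and, in KO lines, Cdkn2b. No list had it at Cdkn1a, Cdkn1b, Cdkn2c or Cdkn2d, as was so for 76.1% of all starts. At the Ink4a start broad peaks of 12738 to 13684 bases covered the whole window in all 4 lines, with fold 11.2 and 11.7 in WT and 14.8 and 14.5 in KO. At the Arf start the fold was 5.51 in WT line 532, there was no peak within 1 kb in WT line 541, and the KO lines had 9.43 and 7.66. A peak of fold 6.80 in WT line 541 ended inside Cdkn2a short of that window, and with a window of 2 kb that line had H3K27me3 at 3 starts in place of 2. At the Cdkn2b start neither WT line and both KO lines had a peak, with fold 3.20 and 3.28. These peaks were weak, with −log10 q of 1.91 and 2.07, and are lost at a minimum of 5. Of all starts, 1.0% had a peak in both KO lines and no WT line, and 0.664% had the reverse. Across the 4744 bases of Cdkn2b, H3K27me3 peaks covered 18.1% and 7.50% in WT and 54.5% and 54.2% in KO. Across the 37560 bases from the end of Cdkn2a to 1 kb before the start of Cdkn2b they covered 54.2% and 46.9% in WT and 62.6% and 65.6% in KO, while H3K27ac covered 12.3% and 8.41% in WT and 6.71% and 6.77% in KO. The KO values lay above the WT values for H3K27me3 and below them for H3K27ac. Over the genome the H3K27me3 lists covered 58.8 and 42.2 Mb in WT and 48.9 and 65.5 in KO, with overlap, and the H3K27ac lists 82.7 and 68.7 in WT and 50.5 and 64.8 in KO, without overlap. The part of that genome-wide difference in the result at the locus was not tested. At Cdkn1c the H3K27me3 fold was 6.12 and 7.26 in WT and 7.96 and 9.10 in KO.

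**Figure D4:**
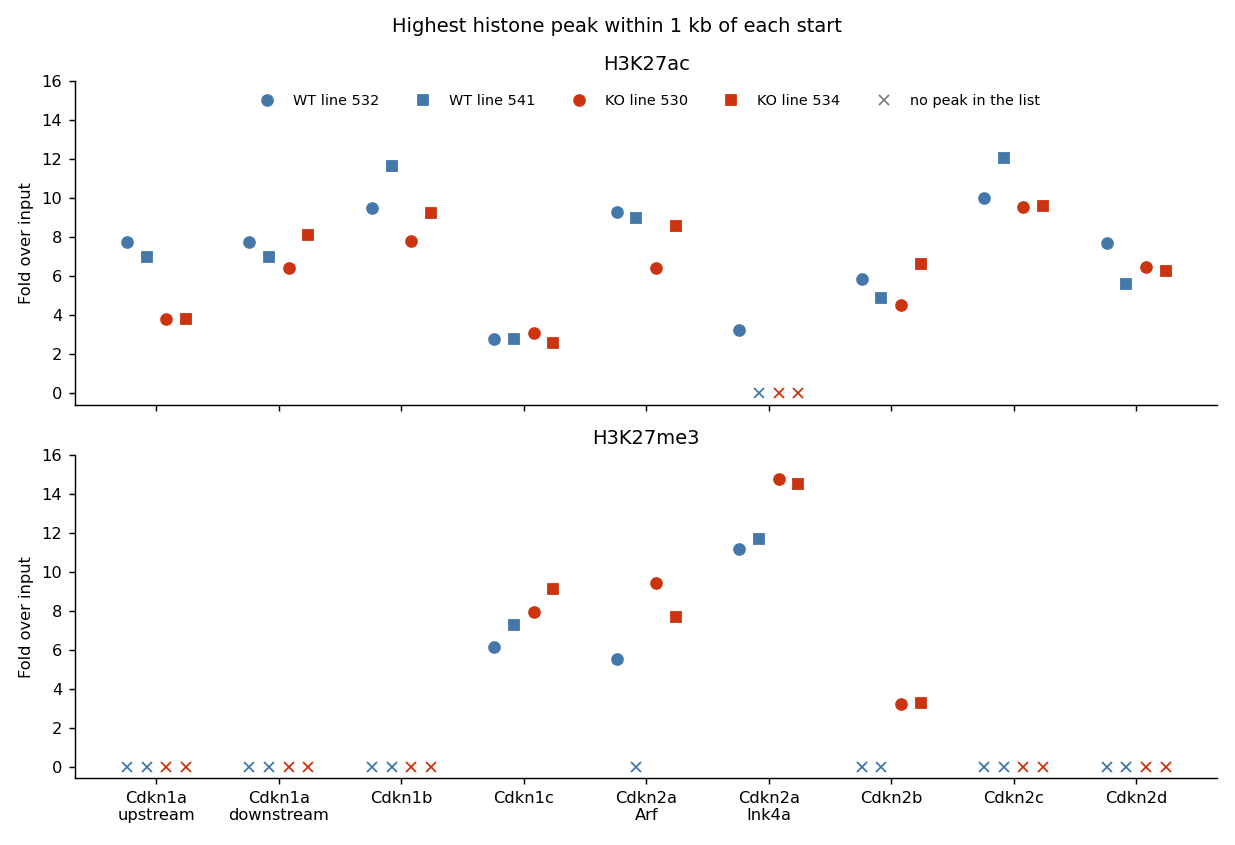
Points give the authors' fold enrichment of the highest H3K27ac and H3K27me3 peak within 1 kb of each start, by line, as fold over input on a linear axis, with a cross at 0 where the line's list has no peak. H3K27me3 is at the Ink4a start in all 4 lines and at the Cdkn2b start in both KO lines alone.

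**Figure D5:**
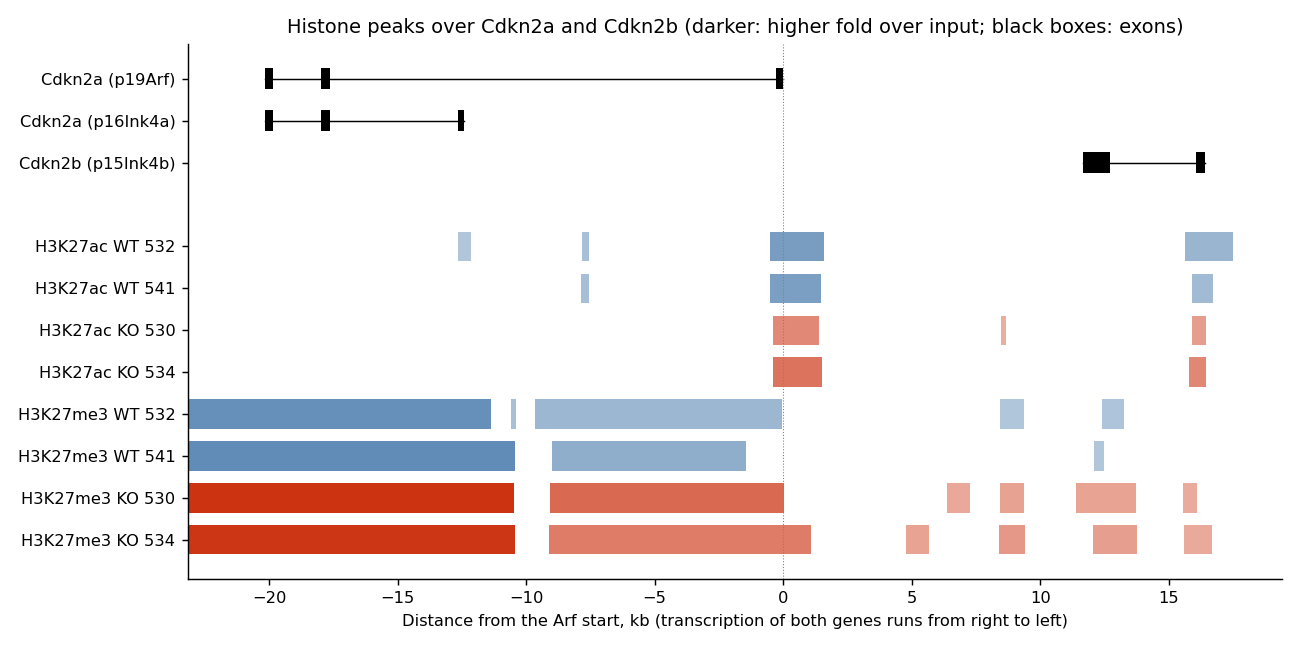
Bars show the authors' peaks in each line along the Ink4 locus, darker for a higher fold, with distance in kb from the Arf start on the x axis and the exons of Cdkn2a and Cdkn2b as black boxes at the top. H3K27me3 blocks lie over most of Cdkn2a in all 4 lines, and those over Cdkn2b cover more of the gene in both KO lines.

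m6A peaks in WT cells were read from 4 lists, which combine 2 immunoprecipitates with 2 inputs and are not independent. Of the 7 genes, 6 had a peak in at least 1 list and 3 (Cdkn1a, Cdkn1c and Cdkn2b) in all 4, where 65.9% and 41.8% of 13361 genes did. Cdkn2a had a peak in no list. The Cdkn2b peak, chr4:89306526-89307188 in exon 2 of 2, had fold 3.93 to 4.67, and a second region in exon 1, chr4:89310911-89310993, was in 2 lists. The Cdkn1a peak, chr17:29093799-29093903, lay in exon 1 of 3 of the transcript from the downstream start, with fold 4.14 to 4.68. Cdkn1c had chr7:143459901-143459992 in exon 2 of 4 (fold 3.21 to 3.84) and chr7:143460720-143460975 in exon 1 (3.80 to 4.32), each in 3 lists. Cdkn2d had chr9:21288620-21289094 in 3 lists (2.80 to 3.12), Cdkn2c had regions in both lists of a single immunoprecipitate (2.45 to 3.23), and Cdkn1b had chr6:134921080-134921395 in 1 list (2.29). With −log10 q of at least 5, Cdkn2b kept a peak in all 4 lists, Cdkn1a and Cdkn1c in 2, and the others in none. At that cut 30.1% of the 13361 genes had a peak in at least 1 list and 7.81% in all 4. The genes that fell in both batches included 2 with a peak in every list and 1, Cdkn2a, with a peak in none. Cdkn2a had the lowest CPM of the 7 in WT of batch 1 (11.6 to 17.9). By FPKM it stood at 33.5 there, above Cdkn1c (21.1) and Cdkn2b (15.6), which had a peak in all 4 lists. In WT of batch 3 Cdkn2b was lower in CPM (8.72 and 5.82) than Cdkn2a (17.9 and 17.3). The part of RNA level in the finding of a peak was not tested.

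The targets and partners of the 7 were taken from lists. The counts that follow are over batches, where 30.8% of all genes were called lower and 32.8% higher, and then in batch 3, where 14.4% and 17.3% were. Of the 4 CDKs, 3 fell and 0 rose, with a median log2 fold change of −0.60, and in batch 3 1 of 4 fell. Cdk1 (−0.94, SE 0.18, adjusted p = 4.0e-04) and Cdk2 (−0.83, SE 0.11) drive mitosis and S phase. Cdk2 averaged 75.6 ± 5.36 CPM in WT against 35.4 ± 3.44 in KO (batch 1), then 103 ± 5.11 against 72.6 ± 10.2 (batch 3). Cdk6, the INK4 partner of stem cells, had a log2 fold change of −0.32 that did not pass (adjusted p = 0.18). Of the 6 G1 and S phase cyclins, 5 fell and 0 rose, with a median of −1.55, and 4 fell in batch 3. They were led by Ccnd1, whose cyclin D1 competes with INK4 proteins for Cdk4 (−2.83, SE 0.29, adjusted p = 3.1e-06), Ccne2 (−2.16), Ccnd2 (−1.87) and Ccna2 (−1.23). Ccne2 averaged 28.3 ± 6.15 CPM against 3.41 ± 1.32, then 25.6 ± 5.39 against 12.2 ± 0.245. Ccne1 had −0.67 and did not pass (adjusted p = 0.053). Of 10 Rb and E2F genes tested, 5 fell and 1 rose (median −0.37), and in batch 3 4 of 11 fell and 0 rose. The pocket protein gene Rbl1 (−1.24) and the E2F genes E2f2 (−1.50), E2f7 (−1.09) and E2f8 (−0.93) fell, Rbl2 rose by 0.34, and Rb1 had 0.10 (adjusted p = 0.55).

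Of the p53 list, which leaves Cdkn1a out, 11 of 20 fell and 2 rose (median −0.29), and in batch 3 6 fell and 0 rose. Pmaip1, the BH3 protein Noxa, fell by 1.23, Plk2 by 1.15, Ccng1 by 0.93 and Trp53 itself by 0.63. The 2 that rose over batches were Btg2 (0.68, adjusted p = 0.0060) and Fas (0.68, adjusted p = 0.018). For neither did KO lie above WT without overlap in both batches. Trp53 averaged 46.4 ± 3.72 CPM in WT against 29.9 ± 2.91 in KO (batch 1), then 113 ± 8.12 against 70.5 ± 9.13 (batch 3). Bbc3 (−0.15, adjusted p = 0.25) and Gadd45a (0.07, adjusted p = 0.76) did not pass. Of 13 genes for the turnover of inhibitor proteins, 10 fell and 1 rose (median −0.30). In batch 3 2 fell and 0 rose (median −0.05), which is near the share of all genes. Cdc20 fell by 1.10, Kpna2, an importin, by 0.94, Ddb1 by 0.63 and Skp2, which marks p27 for destruction, by 0.63. The 1 that rose was Rnf123, a ligase for p27 in G1, by 0.39 (adjusted p = 0.0058).

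Regulators upstream of the 7 moved both ways. Of 16 repressors of the Ink4 locus tested, 8 rose and 4 fell over batches (median 0.29), while in batch 3 1 rose and 3 fell (median 0.09). The Polycomb genes did not move together. Eed fell by 0.93, Ezh2 by 0.60 and Suz12 by 0.34, all core subunits of Polycomb repressive complex 2. Hmga2, on the same list but not a Polycomb gene, fell by 0.86. Ezh1, the alternative catalytic subunit, rose by 0.90. Ezh2 averaged 103 ± 4.43 CPM in WT against 79.6 ± 4.49 in KO (batch 1), then 241 ± 5.41 against 122 ± 9.91 (batch 3). Bmi1, the best known repressor of Cdkn2a in neural stem cells, had −0.02 (adjusted p = 0.73), with 164 ± 1.11 and 165 ± 3.59 CPM in WT and KO of batch 1. Of 20 activators tested, 9 rose and 4 fell over batches (median 0.16), and in batch 3 2 rose and 2 fell (median −0.01). Over batches Tgfb2 (1.17), Foxo1 (0.83) and Ets1 (0.75) rose, and Klf6 (−0.71) and Ets2 (−0.62) fell. The split of the repressors ran from 5 higher and 5 lower to 10 and 4 over the alternatives.

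A list of imprinted neighbours of Cdkn1c was read as well, with H19 and Igf2 included, and its genes need not share 1 imprinted domain. Of its 11 genes 7 were tested, and 3 rose and 2 fell over batches (32.8% and 30.8% of all genes). In batch 3 1 rose and 2 fell (17.3% and 14.4% of all genes), with a median of −0.23. Kcnq1ot1, the noncoding RNA that silences Cdkn1c on the paternal chromosome, rose by 0.84 (SE 0.15, adjusted p = 2.4e-04), with 381 ± 32.6 CPM in WT against 810.1 ± 21.2 in KO (batch 1), then 97.7 ± 1.04 against 129 ± 42.4 (batch 3). It is antisense to Kcnq1, and reads of the pair may not be separated. H19 fell by 1.37 (SE 0.33, adjusted p = 0.0027), with KO libraries below WT libraries in both batches. Its WT libraries of batch 3 were far apart, at 7.04 ± 6.61 CPM. With 1 library left out its change over batches ran from −1.57 to −0.99. Nap1l4 fell by 0.54, and Ascl2 rose from a very low level, 0.0596 ± 0.0633 CPM in WT of batch 1, to 1.43 ± 0.182 in KO.

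Likeness to each gene was measured as the Pearson correlation of log2 CPM over 13 libraries, each relative to the WT mean of its batch. The libraries share genotypes and batches, so genes that differ by genotype score high together. Closest to Cdkn1a were Ppp2r1a (r = 0.995), Mest (0.995) and Actr3 (0.994). Closest to Cdkn2a were Gorasp2 (0.983), Ap2a2 (0.982) and Iars (0.981), and to Cdkn2b Mcam (0.992), Armcx2 (0.986) and Itgb5 (0.980). For the genes not called over batches the values were Tbck 0.979 for Cdkn1b, Pik3cd 0.962 for Cdkn1c and Cd248 0.849 for Cdkn2c, and Gemin6 had 0.977 for Cdkn2d. Cdkn2c had the lowest closest match of the 7.

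The libraries carried the markers of neural progenitors, which themselves differed by genotype. Of 8 progenitor markers, 5 fell and 2 rose over batches, where 30.8% and 32.8% of all genes did. In batch 3 4 fell and 2 rose, where 14.4% and 17.3% of all genes did. The summed FPKM of the list was 6090 to 6175 in WT, 6490 to 6953 in Het and 2661 to 2893 in KO of batch 1, and 5380 to 5385 in WT and 2846 to 4045 in KO of batch 3. Nes fell by 1.46 and Vim by 1.35, while Sox2 rose by 1.00 and Msi1 by 1.03. Of 5 astrocyte markers 4 rose and 1 fell over batches, and of the 4 tested in batch 3 2 rose and 1 fell. Their sums were 82.3 to 105 FPKM in WT, 131 to 173 in Het and 50.7 to 95.7 in KO of batch 1. In batch 3 they were 41.3 to 55.0 in WT and 23.5 to 32.6 in KO. Of 5 oligodendrocyte lineage markers 2 rose and 1 fell over batches, and likewise in batch 3. Their sums were 37.9 to 41.8 FPKM in WT, 34.7 to 50.3 in Het and 23.6 to 29.8 in KO of batch 1. In batch 3 the sums were 19.6 to 41.3 in WT and 12.01 to 15.6 in KO. The KO sums thus lay below the WT sums in both batches, without overlap. Markers of neurons summed to 120.3 to 198 FPKM over all libraries. Of the 6, Dcx rose by 1.96 and Snap25 fell by 1.45 over batches, and 0 were called in batch 3. Sums of microglia markers reached at most 1.10, of endothelium 0.93 and of fibroblasts 1.38, with Cx3cr1 and Lum at 0 in batch 3 and Cdh5 and Dcn at 0 in batch 1. Erythroid markers, 2 of 4 in the tables, summed to 1.59 to 1.94 in WT and 2.52 to 2.89 in KO of batch 1. In batch 3 they reached at most 0.42 in WT and 0.17 in KO. The part of these cell type markers in the results on the CDK inhibitors was not tested. Loci without a known gene took 1.56% to 1.88% of fragments in WT and Het of batch 1 and 2.63% to 2.72% in KO, and 0.444% to 0.661% in batch 3. These differences also move with genotype in batch 1, and their part was not tested.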

How the data were processed

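The deposited RNA tables hold raw fragment numbers per locus, which are estimated counts (5.31% not whole in batch 1, 2.31% in batch 3), and FPKM scaled by the authors, per the file headers. Loci and names come from the authors' merged assemblies. The submitters' processing notes name TopHat2 2.1.0, TopHat, Cufflinks, Cuffdiff, Bowtie2 2.3.1, MACS2 and mm10. Deposited peak lists give each peak's fold over input (a ratio), its p and q as −log10 values, and a score. The batch 2 table equals that of batch 1, so its 6 libraries were not analysed here. Tables number libraries without tying them to lines.

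Fragments were rounded, summed by gene name and fitted with edgeR 4.0.16 (TMM, default low-count filter, robust quasi-likelihood F test, two-sided, Benjamini-Hochberg over all genes tested, threshold 0.05), with batch as covariate over batches. SE was taken from the fold change and F. Adjusted p-values are edgeR's unless another tool is named. Antisense-coded and unnamed loci (the latter 0.444% to 2.72% of fragments) stayed out of gene tests. The code was tested on simulated data. Replicates differed beyond sampling noise (chi-square per degree of freedom 7.36 to 35.8). Alternatives were RLE scaling, no filter, DESeq2 1.42.0, limma 3.58.1 on log2 FPKM plus 1 or 0.1, no Het, each library left out and, added after seeing the data, antisense-coded loci included and loci fitted singly. Peaks were matched by at least 1 base. Named genes are the 7 inhibitors, Mettl14, up to 4 called genes a list with the largest changes and no overlap of KO and WT in both batches, and 3 genes most like each inhibitor; others were chosen after their values were seen. Members and lists were chosen with earlier results of these data known.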

Additional observations from a re-analysis of the deposited data

Results flagged for a closer look

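The effect of the knockout differed between batches for 4 of the 7 inhibitors, by the interaction term of the edgeR fit. The difference, batch 3 minus batch 1 on the log2 scale, was 0.52 for Cdkn1a, which fell in both batches. It was 0.60 for Cdkn2d, with KO above WT in 2 of 2 KO libraries of batch 3 and overlap in batch 1. For Cdkn1b it was −0.41, with KO above WT in 3 of 3 KO libraries of batch 1 and overlap in batch 3. For Cdkn1c it was −1.62, with overlap in batch 1 and KO below WT in 2 of 2 KO libraries of batch 3. These calls depend on single libraries. Leaving out 1 library at a time left 0 to 4 of the 7 called and ended the call of Cdkn2d in 11 of 13 fits, of Cdkn1a in 8, of Cdkn1b in 7 and of Cdkn1c in 2. The batches differ in sequencing experiment, lines and assembly, and these cannot be told apart.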

How the results depend on the processing

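Cdkn1a, Cdkn2a and Cdkn2b were lower in KO and past the threshold under every alternative run in KO against WT over batches, in batch 1, in batch 3 and in KO against Het. Over batches their log2 fold changes ran from −1.39 to −1.18, from −2.38 to −2.04 and from −2.12 to −1.53. Calls of Cdkn1b, Cdkn1c and Cdkn2d that depend on a library are given beside their values in the report. In addition, Cdkn1c in batch 3 was −1.03 (adjusted p = 0.083) with limma on log2 FPKM plus 1, and in batch 1 it was called without the first KO library (0.39, adjusted p = 0.039). The cause of these changes was not tested.

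Signs turned with limma on FPKM (pseudocount 1, then 0.1), which moved the median of all genes in KO against Het from 0.01 to −0.09 and −0.12. Cdkn2c was −0.078 and −0.079 over batches, 0.065 and 0.066 in Het against WT, and −0.23 and −0.23 in KO against Het. Cdkn2d was −0.13 and −0.13 in batch 1, 0.012 and 0.013 in Het against WT, and −0.14 and −0.15 in KO against Het. Cdkn1c was −0.049 and −0.051 in batch 1. The cause was not tested. None of these values passed the threshold.

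Signs also turned when 1 library was left out. Over batches Cdkn2c ranged from −0.056 to 0.096. In batch 1 Cdkn1c ranged from −0.00029 to 0.39 and Cdkn2d from −0.12 to 0.14, and in batch 3 Cdkn1b from −0.20 to 0.050. In Het against WT Cdkn1a ranged from −0.048 to 0.10 and Cdkn2a from −0.46 to 0.047. In KO against Het Cdkn2c ranged from −0.071 to 0.15 and Cdkn2d from −0.047 to 0.22. The difference between batches of Cdkn2b ranged from −0.50 to 0.17. Leaving out 1 library gave 2078 to 5632 genes and 3 to 4 of the 7 inhibitors called in batch 3, 0 to 16 genes in Het against WT, and 1100 to 4517 genes and 0 to 4 inhibitors for the difference between batches. A genotype left with 1 library is assumed to vary like the others. DESeq2 called 26 genes in Het against WT, where edgeR called 2.

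With peaks over at least 50% of the window, H3K27ac was at 5 starts in WT line 541 and 5 in KO line 534 in place of 8, and H3K27me3 at 1 in WT line 532 in place of 3. With a −log10 q of at least 5, or a peak required in all 4 lists, 3 of the 7 genes had an m6A peak. Of 13361 genes, 30.1% had a peak in any list at that q, and 41.8% had a peak in all 4 lists without that cut. DESeq2 and limma were not run for the difference between batches. The low counts of Cdkn2a and, in batch 3, of Cdkn2b and Cdkn1c limit their precision. No paired analysis was possible because the WT, Het and KO libraries compared come from different lines and share no number in the labels. Line numbers tie RNA of batch 3 to histone lists within a genotype, the RNA tables do not name lines, and the m6A lists, which share replicate numbers, give no test.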
